A study of Mus musculus with 2 samples.

Results

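Red cell precursors depend on erythropoietin, and 10 genes of its receptor pathway were examined here in maps of accessible chromatin from G1E-ER4 cells. The genes were chosen by name and not by a measured value, but with earlier results of these data known. These genes make up 10 of the 21853 protein-coding genes of the annotation. They are Epor (the receptor), Jak2 (the kinase bound to it), Stat5a and Stat5b (the transcription factors that the kinase activates), Cish, Socs1, Socs2 and Socs3 (feedback inhibitors) and Pim1 and Bcl2l1 (a kinase and a survival factor known as targets of the pathway). All peaks within 50 kb of each gene body were taken, which gave 58 regions of the 20080 in the main list.

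G1E-ER4 is a C57BL/6J mouse line of male red cell precursors in which the Gata1 gene was lost and later restored as a fusion with the ligand-binding part of the estrogen receptor. Estradiol switches the fusion on and starts red cell maturation. The assay was ATAC-seq, in which a transposase cuts and tags open DNA, in 2 libraries, each of 50000 cells that had spent 24 hours with 17beta-estradiol at 10 nM. The libraries are biological replicates 1 and 2 of this 1 group, and both come from 1 line whose label names 1 donor. Whether they grew as separate cultures is not stated, so the difference between the libraries, the only error that can be given, may be technical. No cells without estradiol were analysed here, so nothing below is an effect of estradiol or of erythropoietin.

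Erythropoietin binds its receptor at the cell surface and brings receptor chains together, so that the attached JAK2 phosphorylates the receptor tails and the STAT5 proteins that dock there. Paired STAT5 proteins enter the nucleus and bind the GAS element, whose letters are TTCNNNGAA. Among the genes they switch on are CISH and the SOCS proteins, which block the receptor or the kinase and so close a feedback loop, and genes that keep red cell precursors alive. GATA1, the master regulator of this lineage, binds AGATAA and TGATAA.

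The values are peak lists on mm10 (GRCm38). The conservative list holds regions that were reproducible between the replicates by the irreproducible discovery rate (IDR), each replicate has its own IDR list made from that library alone, and the replicated list is looser and has no IDR threshold. A promoter region overlaps 1 kb on either side of a protein-coding transcription start site of the gene, and a distal region has its summit farther than 1 kb from every such start site. The signal of a region is the authors' value per peak and is compared only within a list. Read depth is unknown. The libraries carried the accessible promoters of red cells. In the conservative list 9 of 10 erythroid markers had a promoter region, with Alas2 the exception, where 42.3% of all protein-coding genes had one. Of the macrophage and granulocyte markers 0 of 8 had one, and of the lymphoid markers 1 of 6 (Rag1). Any region within 50 kb was present at 10 of 10, 6 of 8 and 5 of 6, so that count separated the groups less.

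Most of the 10 genes were accessible at their promoters. In the conservative list 9 of them had a promoter region, where 42.3% of all protein-coding genes had one, and the exception was Stat5b. Counts from each replicate's own list were the same, with 9 genes in replicate 1 against a background of 38.8% and 9 genes in replicate 2 against 39.9%. All 10 genes had one in the replicated list, against 46.9% of genes. At least 2 separate promoter regions stood at 4 genes (Epor, Socs1, Socs2 and Bcl2l1), where 7.30% of all genes had as many. Of the 34 annotated start sites of the 10 genes, 28 had a region within 1 kb, and those without were both of Stat5b, 2 of 5 at Socs2 and 2 of 4 at Pim1. Start sites of a gene can share a region, so the 28 largely repeat the count by gene. The share over all annotated start sites was not computed.

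**Figure D1:**
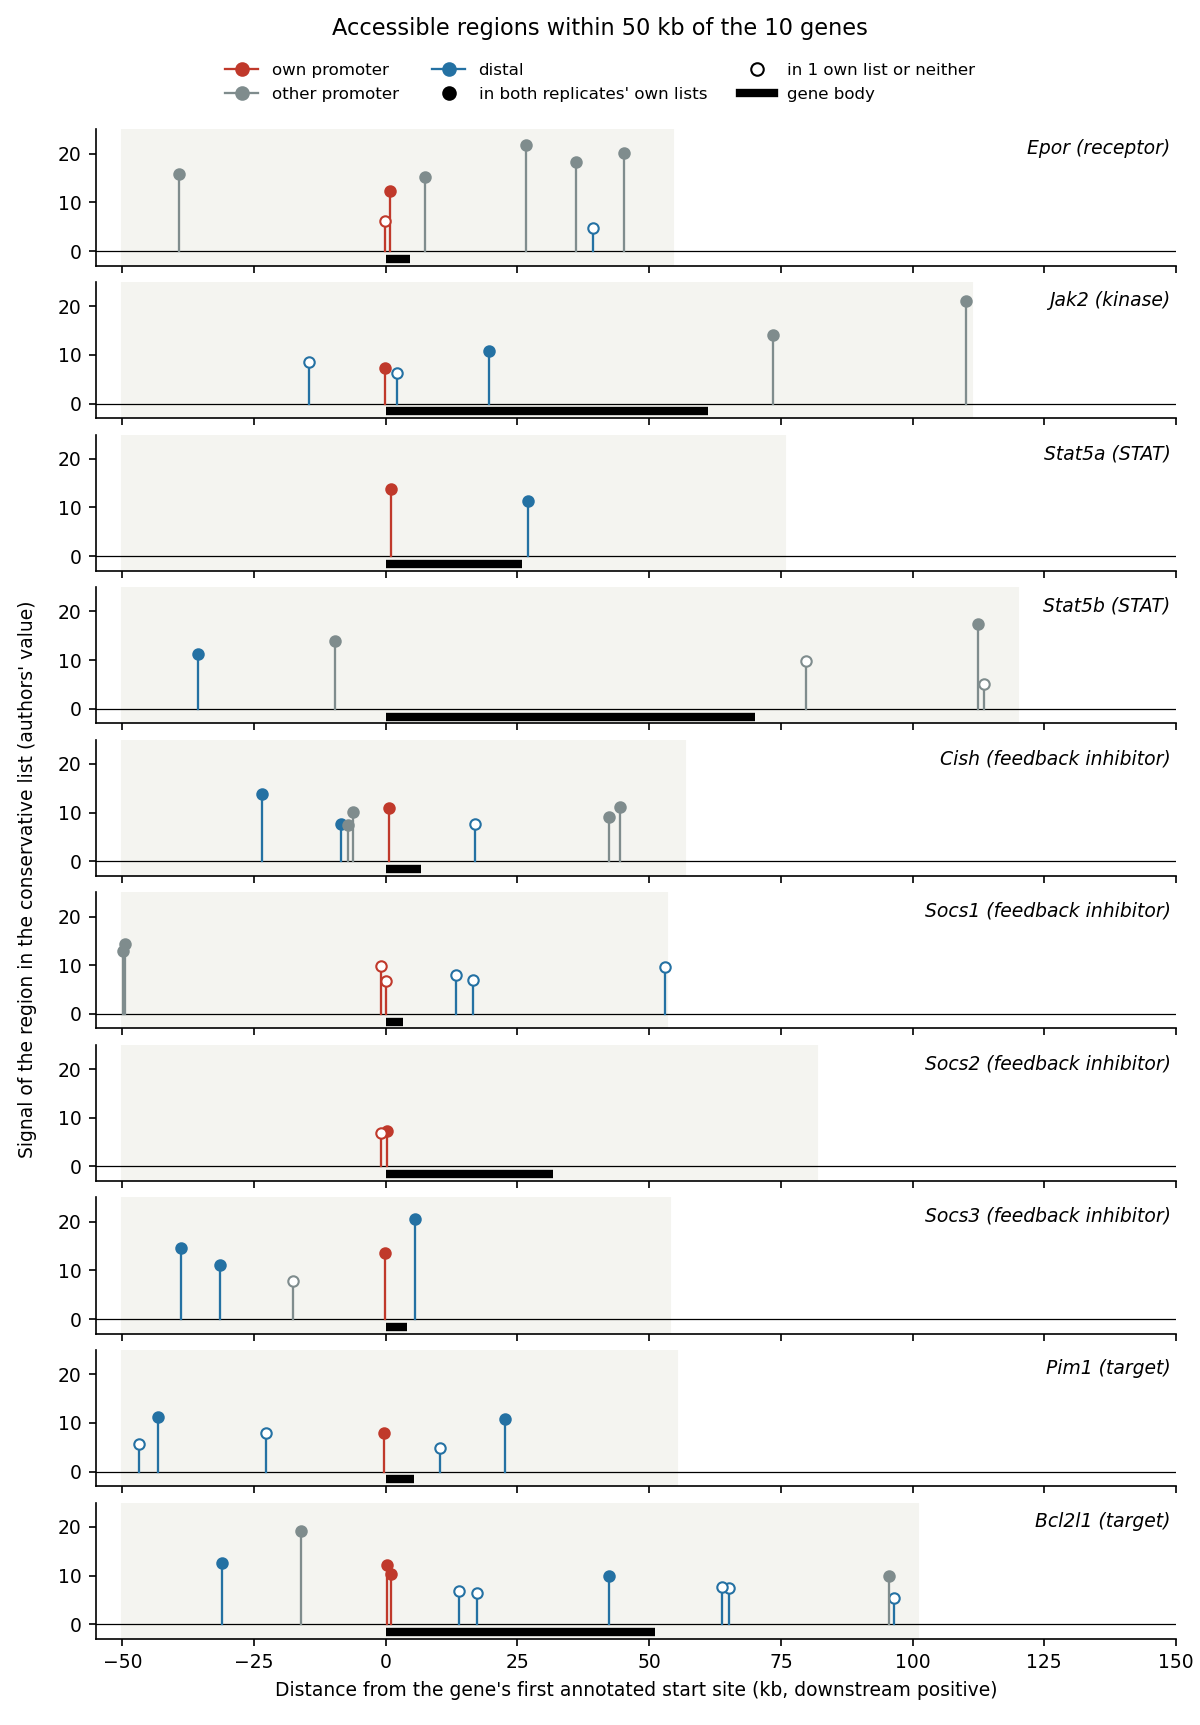
Accessible regions within 50 kb of each of the 10 genes, placed by the distance of their summit from the gene's first annotated start site in kb (x axis) and by their signal in the conservative list (y axis); colour gives the class of the region, filled points are regions in both replicates' own lists, the shaded band is the window and the black bar the gene body. Socs2 has 2 regions, both at its start site, and the tallest distal region is that of Socs3, at 20.6.

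The promoter signals were modest. The 13 regions at the genes' own promoters had a median signal of 9.80 and ran between 6.14 and 13.9, while the 9497 promoter regions of the list had a median of 12.9. Only Stat5a and Socs3 lay above that median, and the median rank of the 13 was percentile 27.9. Summits of 11 of the 13 lay within 300 bp of a start site of the gene. Both replicates' own lists held 9 of the 13 (69.2%), a lower share than the 80.7% of all promoter regions of the list. This left 2 in replicate 1 only and 2 in replicate 2 only. By gene, 8 of the 10 had a conservative promoter region that both own lists held, and those without were Stat5b and Socs1. With any promoter region in each own list counted, as for Socs1, whose regions differed between the lists, the number was 9, against 37.6% of all genes.

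**Figure D2:**
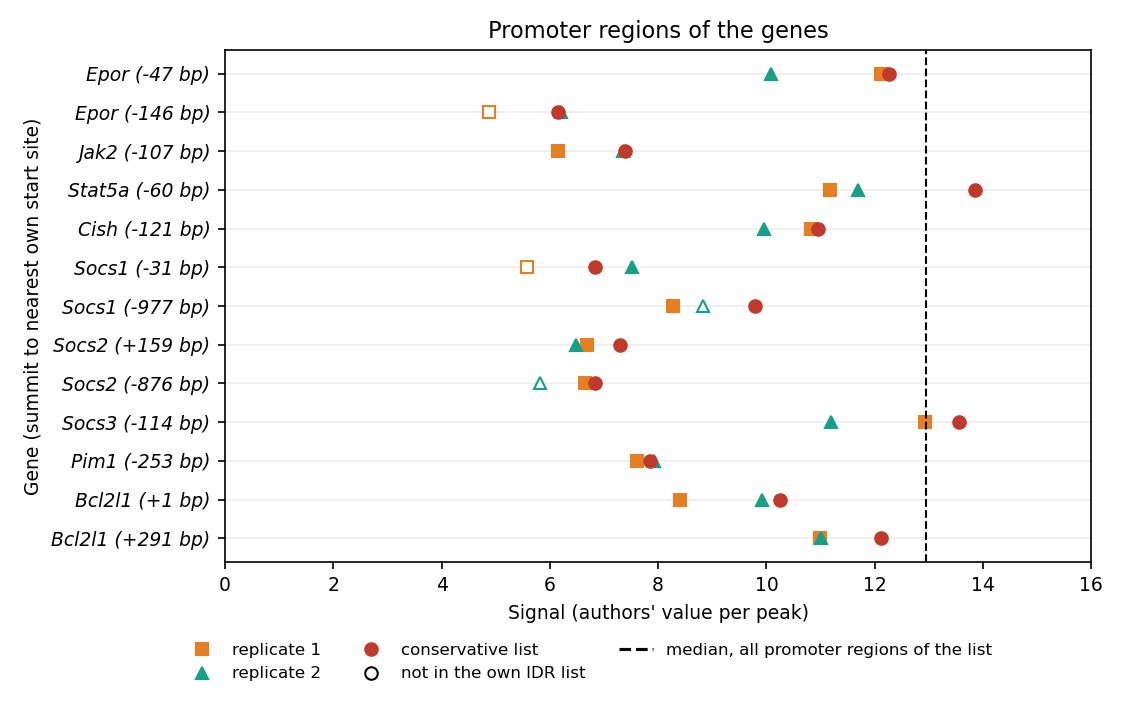
Signal (x axis, the authors' value per peak) of the 13 regions at the genes' own promoters, with 1 row per region named by the gene and the distance in bp from its summit to the nearest start site of the gene. Squares and triangles are replicates 1 and 2, circles the conservative list, open symbols values that did not enter that replicate's own IDR list, and the dashed line the median of all promoter regions of the conservative list, 12.9, which the circles of Stat5a and Socs3 exceed.

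The receptor gene Epor, on the minus strand of chromosome 9, had 2 accessible places at its start. The stronger, chr9:21962322-21962991, lay inside the gene with its summit at −47 bp from the second annotated start site. Its signal was 12.1 in replicate 1 and 10.1 in replicate 2, and 12.3 in the conservative list, so that both replicates held it and it stood at percentile 45.2 of promoter regions. The weaker, chr9:21963493-21963790, covered the upstream promoter at −146 bp from the first start site. There the signal was 4.88 in replicate 1 and 6.20 in replicate 2, and 6.14 in the conservative list, and it passed the IDR threshold in replicate 2 only. This weaker region is shown because it covers the proximal promoter, where Epor is known to have a GATA1 site. The sequence is the 250 bases before the RefSeq start (GRCm38.p6, minus strand, chr9:21963577-21963826), with the GATA match in capitals, which reads as AGATAA on the opposite strand.

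Epor promoter: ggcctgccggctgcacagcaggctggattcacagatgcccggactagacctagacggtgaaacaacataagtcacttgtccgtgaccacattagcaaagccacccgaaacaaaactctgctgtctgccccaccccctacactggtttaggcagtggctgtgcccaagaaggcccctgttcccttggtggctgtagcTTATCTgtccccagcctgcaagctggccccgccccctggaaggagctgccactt

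The match spans −54 to −49 bp from the RefSeq start and was the sole GATA match of that promoter sequence, which runs to 50 bases past the start in the RefSeq table. Of the 32851 RefSeq promoters of the same length, 18.6% held at least 1 GATA match. Around Epor the landscape was one of other genes' promoters: 8 other protein-coding genes start in its window, and 5 of its 8 regions were their promoters, with signals between 15.3 at Swsap1 and 21.8 at Plppr2. Its single distal region, chr9:21924134-21924374 in an intron of Tmem205, had a signal of 4.69, held a GATA match and was in neither own list. In the replicated list Epor had 2 distal regions, the fewest of the 10 genes.

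At Jak2, on the plus strand of chromosome 19, the promoter region chr19:29251220-29251889 had its summit at −107 bp. Its signal was 6.15 in replicate 1 and 7.34 in replicate 2, and 7.38 in the conservative list, so it was called in both and stood at percentile 13.4 of promoter regions. The strongest distal region of the gene, chr19:29271126-29271546, lay over a coding exon at +18.9 kb, with a signal of 8.52 in replicate 1 and 8.88 in replicate 2. A region in the gene at +1.499 kb was called in replicate 2 only, and one upstream at −14.5 kb in neither own list. None of the 6 regions near Jak2 had a GAS or a GATA match at its summit. Promoters of its neighbours Insl6 and Plgrkt were stronger than its own, at 14.1 and 21.04.

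Stat5a and Stat5b lie side by side on chromosome 11 and point away from each other, and they differed at their starts. In the conservative list Stat5a had the strongest promoter region of the 10 genes, chr11:100860141-100860926, with its summit at −60 bp from one of its 5 start sites. Its signal was 11.2 in replicate 1 and 11.7 in replicate 2, and 13.9 in the conservative list (percentile 56.5), and both replicates held it. In replicate 1 the promoter regions of Socs3 and Epor were stronger, at 12.9 and 12.1. Stat5b had no promoter region in the conservative list nor in either own list. In the replicated list a region stood over its first start site, chr11:100850410-100850754, with a signal of 6.33 and a global IDR of 0.0669. The threshold of the conservative list is 0.05, so that region missed it by little. Replicate 1 gave it a signal of 5.07, and the ranked list of replicate 2 did not hold it. A second region inside the gene at +0.842 kb had a signal of 3.42 and a global IDR of 0.513. Stretches of the pair are near copies of each other, so reads there can be hard to place, and whether this affected either gene was not tested.

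The windows of the STAT genes shared 2 regions, the Stat5a promoter and the distal region chr11:100886131-100886720. That distal region lay 25.9 kb downstream of the nearest Stat5a start site, in a UTR of the neighbouring Stat3, and had a GATA match. Its signal was 9.54 in replicate 1 and 9.20 in replicate 2, and 11.3 in the conservative list, and both replicates held it. It was the single distal region of either gene in that list. In the replicated list Stat5a had 6 distal regions and Stat5b had 5.

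At 3 of the 4 feedback inhibitors the promoter regions held several GAS matches. Searched over their whole length, those of Cish, Socs2 and Socs3 held 4, 2 and 2, and those of Socs1 held none. The other own promoter regions held none either, except that of Stat5a, with 1. Cish, whose promoter is known for tandem STAT5 elements, had 1 promoter region, chr9:107296239-107296953 on the plus strand, with a summit at −121 bp from the nearest start site. Its signal was 10.8 in replicate 1 and 9.95 in replicate 2, and 10.9 in the conservative list (percentile 35.6), and both replicates held it. Socs2 had the region chr10:95416513-95417478 over its first start site, with 6.69 in replicate 1 and 6.48 in replicate 2, and 7.30 in the conservative list (percentile 12.9), again in both. Its second promoter region, at −876 bp, had 6.66 in replicate 1 and 5.83 in replicate 2 and was called in replicate 1 only. Socs3 had the region chr11:117968914-117969648, with 12.9 in replicate 1 and 11.2 in replicate 2, and 13.6 in the conservative list (percentile 54.4).

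The sites themselves are shown on the sense strand of each gene (GRCm38), with GAS matches in capitals, because their spacing is what the comparison with the whole list turns on. They are the pairs of Cish at chr9:107296654-107296683 and chr9:107296762-107296791 on the plus strand, the pair of Socs2 at chr10:95416899-95416928 on the minus strand, and the single matches of Socs3 at chr11:117969502-117969530 and chr11:117969229-117969257 on the minus strand.
Cish upstream pair: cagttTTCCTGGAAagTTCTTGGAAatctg
Cish downstream pair: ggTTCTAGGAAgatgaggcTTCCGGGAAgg
Socs2 pair: gcggaTTCCTGGAAagTTCCTGGAAagcgg
Socs3 upstream match: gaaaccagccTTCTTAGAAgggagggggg
Socs3 downstream match: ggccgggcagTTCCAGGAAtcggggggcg

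The matches of the upstream pair of Cish were centred at −47 and −36 bp from the start site nearest to the summit, and they began 11 bp apart. Those of the downstream pair were centred at 58 and 75 bp, with starts 17 bp apart. Measured from the gene's first start site, the upstream pair of Cish was centred at 637 and 648 bp, and from the RefSeq start at 4 and 15 bp. In Socs2 the matches were centred 261 and 272 bp past the gene's first start site, which is −62 and −51 bp from the next start site, and the starts were likewise 11 bp apart. Over the 20 bases that the 2 matches and the gap cover, the upstream pair of Cish and the pair of Socs2 were alike at 19 bases. The Socs3 matches were centred at −330 and −57 bp and stood 273 bp apart.

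Across the whole conservative list, such arrangements were rare. Neighbouring GAS matches that began 11 bp apart occurred in 2 of 20080 regions (0.00996%), and the genes nearest to those regions were Cish and Socs2. In each replicate's own list and in the replicated list the count was likewise 2, with the same nearest genes. The spacing was picked after the Cish and Socs2 values had been seen, so this count describes the list and has no test. For any spacing of 4 to 30 bp, 38 regions of the list held neighbouring matches, 3 of them within 50 kb of the 10 genes (those of Cish and Socs2, and the Socs1 region at +13.3 kb). At least 4 matches occurred in 3 regions (0.0149%), whose nearest genes were Cish, N4bp2l2 and Clec16a. Among the 3631 promoter regions within 20% of the width of that of Cish, 1 had at least 4, which was that of Cish itself. At least 2 matches, as at Socs2, were found in 41 of the 2171 promoter regions of similar width (1.89%). The numbers of matches and the widths were likewise set from the Cish and Socs2 regions, so these counts have no test.

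**Figure D3:**
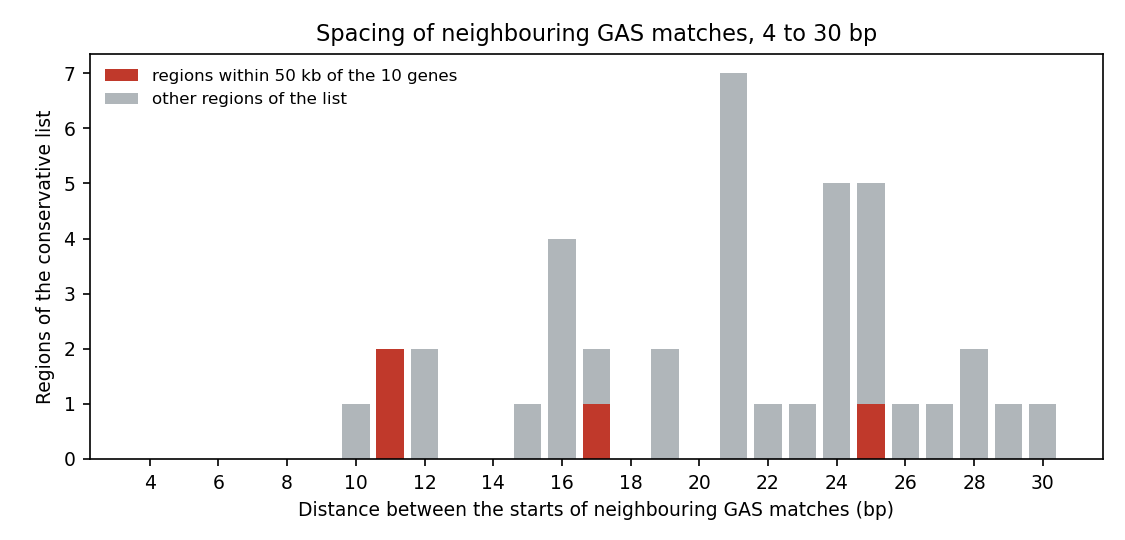
Number of regions of the conservative list (y axis) in which neighbouring GAS matches begin at a given distance in bp (x axis), with regions within 50 kb of the 10 genes in red and all others in grey; a region with pairs at several spacings, as at Cish, stands in each. Both regions at 11 bp belong to Cish and Socs2, and the most frequent spacing in this range, 21 bp, occurs in 7 regions.

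The 4 inhibitor genes differed in their distal regions, as the maps of the loci show. Socs3 had 3, all in both own lists, and 1 was the strongest distal region near any of the 10 genes. That region, chr11:117963259-117963935, lay in intergenic sequence 5.59 kb downstream of the start site, with 17.8 in replicate 1 and 17.7 in replicate 2, and 20.6 in the conservative list (percentile 98.6 of distal regions). The sequence within 100 bp of its summit was rich in CpG (66.2% GC and an observed to expected CpG ratio of 0.979, against 54.7% and 0.227 at the median of the 26 distal regions) and held no GAS or GATA match. The other Socs3 regions lay in introns of Pgs1 at −31.5 and −38.8 kb, with signals of 11.1 and 14.6. Cish also had 3, of which the strongest was chr9:107272178-107272711 in an intron of Mapkapk3 at −23.5 kb, with 9.97 in replicate 1 and 13.1 in replicate 2. Socs2 had none in the conservative list or in either own list, and 3 in the replicated list, although its window of 132 kb holds no start site of another protein-coding gene.

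Of the 7 regions near Socs1, 2 were in both own lists, and those were promoters of its neighbour Rmi2. Its promoter regions stood at −31 bp, chr16:10785038-10785969, and at −977 bp, chr16:10786359-10786659. The first had 5.59 in replicate 1 and 7.52 in replicate 2 and was called in replicate 2 only, and the second had 8.28 in replicate 1 and 8.82 in replicate 2 and was called in replicate 1 only. Of the 3 distal regions of Socs1 none was in both own lists. Both that lie in intergenic sequence held GAS matches near the summit, and they are shown on the sense strand of Socs1 (minus strand, GRCm38, 100 bp on either side of each summit, GAS in capitals). The one at +13.3 kb is chr16:10772172-10772372, with 6.97 in replicate 1 and 7.22 in replicate 2, called in replicate 1 only. That at +16.5 kb is chr16:10768912-10769112, with 5.32 in replicate 1 and 6.49 in replicate 2, in neither own list.
Socs1 +13.3 kb: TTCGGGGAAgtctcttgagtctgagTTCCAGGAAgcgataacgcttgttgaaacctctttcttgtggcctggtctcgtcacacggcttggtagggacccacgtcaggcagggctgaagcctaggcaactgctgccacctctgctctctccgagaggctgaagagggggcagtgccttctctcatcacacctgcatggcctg
Socs1 +16.5 kb: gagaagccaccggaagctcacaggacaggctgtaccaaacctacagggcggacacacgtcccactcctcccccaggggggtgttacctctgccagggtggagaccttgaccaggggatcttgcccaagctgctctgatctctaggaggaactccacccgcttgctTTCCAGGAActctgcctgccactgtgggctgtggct

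In the conservative list the targets had the most distal regions, with 5 at Pim1 and 7 at Bcl2l1. Replicate 2's own list gave 4 at each, but in replicate 1's own list each had 2, fewer than the 3 of Socs3. At Pim1, a kinase gene on the plus strand of chromosome 17, the promoter region chr17:29490056-29490940 had its summit at −253 bp. Its signal was 7.61 in replicate 1 and 7.93 in replicate 2, and 7.84 in the conservative list (percentile 16.05), and both replicates held it. All 5 distal regions lay outside the gene, between −46.8 and +19.95 kb, and 2 of them were in both own lists: chr17:29447177-29447740 at −43.3 kb, with 8.94 in replicate 1 and 11.1 in replicate 2 and a GATA match, and chr17:29513137-29513540 at +19.95 kb, with 8.58 in replicate 1 and 8.75 in replicate 2. GAS matches lay in a pair of weaker ones, printed on the plus strand (GRCm38, 100 bp on either side of each summit) with GAS and GATA matches in capitals. The region at −46.8 kb, chr17:29443824-29444024, had 4.92 in replicate 1 and 5.43 in replicate 2, was called in replicate 2 only, and held a GATA match (the TGATAA) as well as the GAS match. The region at +7.59 kb, chr17:29500893-29501093, had 4.67 in replicate 1 and 4.72 in replicate 2 and was in neither own list.
Pim1 −46.8 kb: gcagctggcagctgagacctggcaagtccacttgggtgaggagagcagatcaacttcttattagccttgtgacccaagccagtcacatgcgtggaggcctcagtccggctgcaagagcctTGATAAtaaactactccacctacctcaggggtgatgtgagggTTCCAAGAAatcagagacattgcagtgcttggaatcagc
Pim1 +7.59 kb: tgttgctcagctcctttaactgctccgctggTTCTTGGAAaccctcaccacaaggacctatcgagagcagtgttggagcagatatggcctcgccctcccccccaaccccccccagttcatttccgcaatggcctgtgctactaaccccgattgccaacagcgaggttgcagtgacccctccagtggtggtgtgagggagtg

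Bcl2l1, which encodes the survival protein BCL-XL and lies on the minus strand of chromosome 2, had the most regions of the 10 genes, with 11. Its promoter regions were chr2:152830346-152830832, over a cluster of start sites, and chr2:152831023-152831841, upstream of it. The first had 8.41 in replicate 1 and 9.92 in replicate 2, and 10.3 in the conservative list. The second had 10.997 in replicate 1 and 11.02 in replicate 2, and 12.1 in the conservative list, and both regions were in both own lists. Inside the gene lay 3 distal regions, each with a GATA match at its summit. The strongest, chr2:152789133-152790090 at +41.0 kb, had 8.26 in replicate 1 and 9.51 in replicate 2 and was in both own lists. The regions at +12.6 and +15.9 kb had 5.84 and 4.89 in replicate 1 and 5.29 and 6.53 in replicate 2, and both were called in replicate 2 only.

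The introns of Bcl2l1 are shown because they hold GATA matches, on the minus strand (GRCm38) with those matches in capitals. Such a match lay in 38.2% of all distal regions of the list, and binding was not measured here. BCL-XL is known as a gene that GATA1 raises during red cell maturation. The region at +12.6 kb is chr2:152817643-152817843, and near its centre the capitals also take in the E-box GATA composite (CTG, 9 bases of any kind, then GATAA), the element bound by GATA1 together with TAL1. The composite was centred 6 bp from the summit and was the single match of that kind among the 58 regions (1.72%), against 3.64% of the list. Among the 26 distal regions the share was 3.85%, against 6.16% of distal regions of the list. The region at +15.9 kb is chr2:152814310-152814510. The last stretch, chr2:152789546-152789700, is from the region at +41.0 kb and has its 3 GAS matches in capitals.
Bcl2l1 +12.6 kb: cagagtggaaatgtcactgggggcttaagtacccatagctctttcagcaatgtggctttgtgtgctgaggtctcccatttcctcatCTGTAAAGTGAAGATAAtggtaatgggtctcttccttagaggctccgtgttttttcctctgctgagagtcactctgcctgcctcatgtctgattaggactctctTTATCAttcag
Bcl2l1 +15.9 kb: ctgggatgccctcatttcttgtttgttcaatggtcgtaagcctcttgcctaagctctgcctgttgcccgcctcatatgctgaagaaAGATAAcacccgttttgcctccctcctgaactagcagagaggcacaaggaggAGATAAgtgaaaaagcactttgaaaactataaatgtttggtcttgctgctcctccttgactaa
Bcl2l1 +41.0 kb, GAS stretch: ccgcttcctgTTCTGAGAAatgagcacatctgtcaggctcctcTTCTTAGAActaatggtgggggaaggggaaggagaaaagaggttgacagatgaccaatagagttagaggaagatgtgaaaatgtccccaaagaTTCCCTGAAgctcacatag

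At least 3 GAS matches, as in that last region, occurred in 5 of the 752 distal regions of similar width (0.665%). The number of matches and the width were set from that region, so this share describes the list and has no test. The matches there were centred 245 to 371 bp from the summit. Within 100 bp of the summit the same region had a GATA match and no GAS match.

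Counted over all 10 genes, at least 1 distal region stood near 9 of them in the conservative list, where 50.6% of all genes had one, and the exception was Socs2. In replicate 1's own list 8 genes had one, against 36.2% of all genes, in replicate 2's own list 7 against 40.8%, and in the replicated list 10 against 74.2%. The median was 3 distal regions per gene over the 10 genes and 1 over all genes, and the means were 2.70 and 1.19. The 7 at Bcl2l1 were matched or exceeded by 1.53% of all genes, the 5 at Pim1 by 5.38%, and the 3 at Jak2, Cish, Socs1 and Socs3 by 16.7%. Windows of long genes are wider, and those of Jak2, Stat5b and Bcl2l1 spanned 161, 170 and 151 kb, against 103 to 132 kb for the others. By role, the conservative list held 1 distal region for the receptor, 3 for the kinase, 1 for the STAT genes, 9 for the 4 inhibitors and 12 for the targets. Of these, both own lists held 0, 1, 1, 5 and 4. The last 2 totals cover 4 inhibitor genes and 2 target genes, so they are not like for like. By gene, Socs3 had 3 distal regions in both own lists, Cish, Pim1 and Bcl2l1 had 2 each, and Socs1 and Socs2 had 0.

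**Figure D4:**
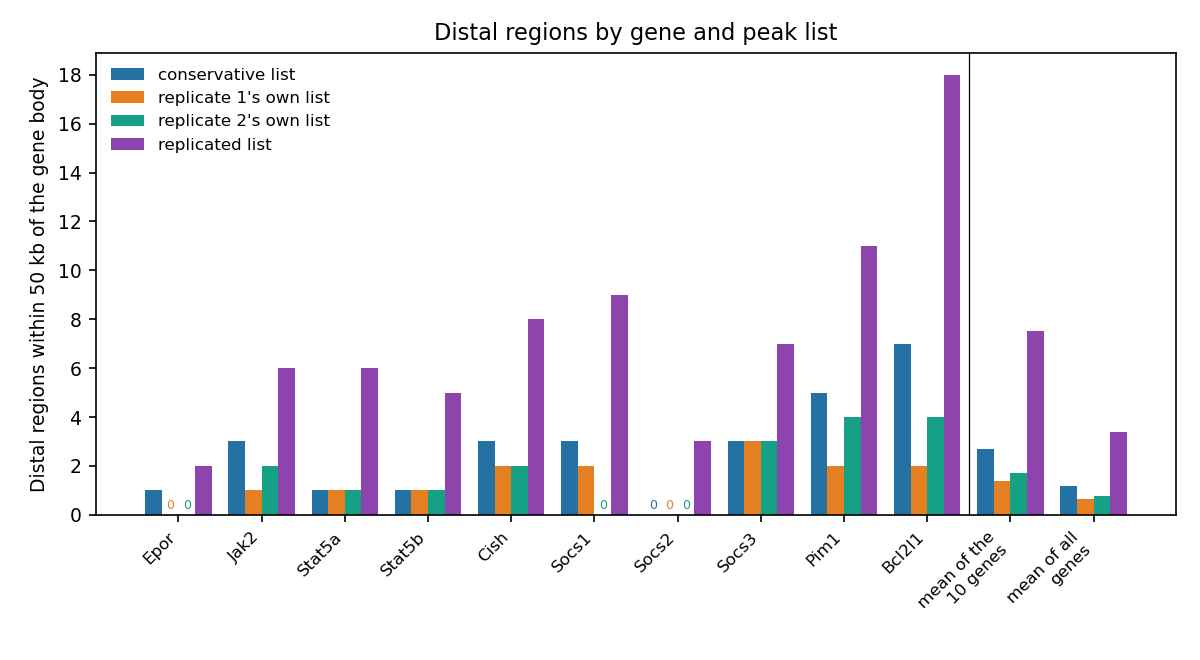
Distal regions counted in the window of 50 kb (y axis) for each of the 10 genes in 4 peak lists (colours), with the means over the 10 genes and over all protein-coding genes to the right of the line. Bcl2l1 is highest in the conservative and replicated lists, at 7 and 18, and Socs2 has 0 in every list drawn but the replicated one, where it has 3.

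Of the 26 distal regions, 5 had their summit inside one of the 10 genes, and for 15 the nearest protein-coding start site was that of one of the genes. Introns held 14, intergenic sequence 10, a coding exon 1 and a UTR 1. Their median signal was 7.94 (range 4.69 to 20.6), against 9.36 over all distal regions of the list. Both own lists held 11 of the 26 (42.3%), against 42.7% of all distal regions. Over all 58 regions 36 were in both own lists (62.1%, 95% Wilson interval 49.2 to 73.4, counting error only), against 60.7% of the list. Where both ranked lists gave a value, the log2 ratio of replicate 2 to replicate 1 had a median of 0.06 over 57 regions (range −0.26 to 0.47), against 0.05 over the list, where the central 90% ran between −0.30 and 0.44.

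**Figure D5:**
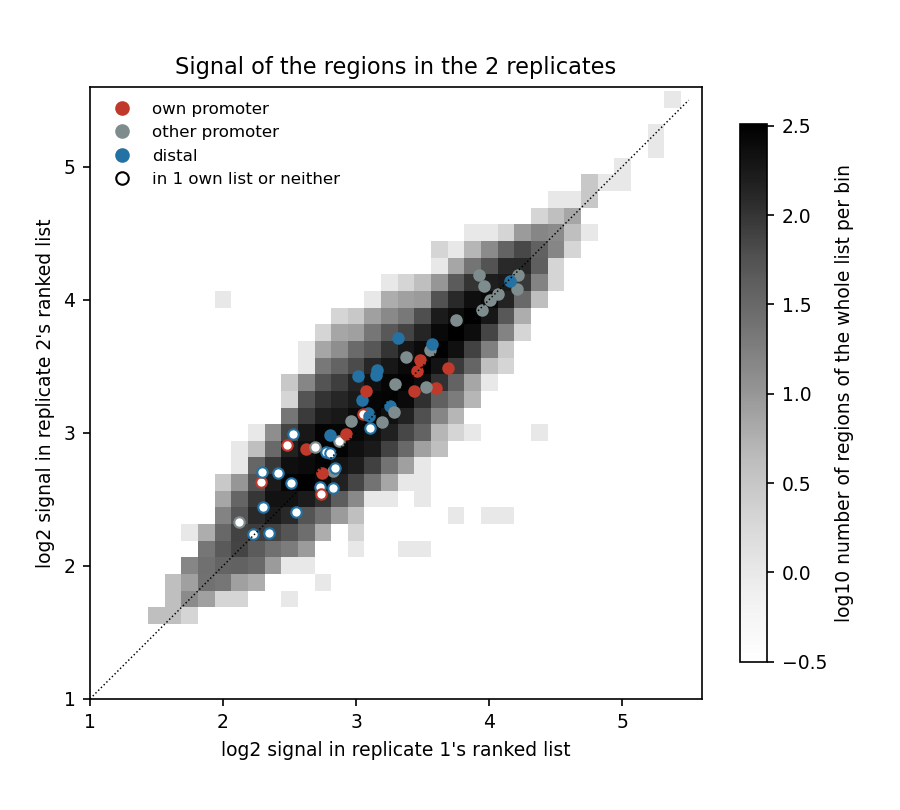
Signal of each region in the ranked lists of replicate 1 (x axis) and replicate 2 (y axis), both on a log2 scale, with regions within 50 kb of the 10 genes as points and the whole conservative list as grey bins; open points are regions in 1 own list or neither, and the dotted line marks equal values. The log2 ratio of replicate 2 to replicate 1 runs between −0.26 and 0.47 over the points.

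Counted within 100 bp of the summit, a GAS match was present in 7 of the 58 regions (12.1%), against 5.34% of the list, and a GATA match in 12 (20.7%), against 23.4%. By role, GAS was present in 4 of the 22 regions near the inhibitors and in 3 of the 17 near the targets. Among those 3 was the promoter of Tpx2, in the window of Bcl2l1. None of the 8 regions near Epor, 6 near Jak2 and 5 near the STAT genes had GAS, and at the share of the list few would. GATA matches lay in 7 regions near the targets, in 2 near Epor, in 2 near the STAT genes and in 1 near the inhibitors. Of the 26 distal regions 4 had GAS (15.4%), against 6.51% of distal regions of the list, and 9 had GATA (34.6%), against 38.2%. When whole regions were searched, GAS was found in 4 of the 13 own promoter regions (30.8%), against 12.4% of promoter regions, and in 8 of the 26 distal regions (30.8%), against 14.3%. The own promoter regions had a median width of 715 bp, against 496 bp over all regions of the list, promoter and distal together. The median width of the list's promoter regions alone is not given here. A wider region has more room for a match. The counts are small and no test was made of them.

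Below the IDR threshold, the replicated list added 50 regions near the 10 genes, 6 at promoters and 44 distal, and 5 of them had a global IDR below 0.1. Within 100 bp of the summit a GATA match was present in 26 of the 50 (52%), against 35.1% of the 26307 regions of the replicated list outside the conservative list, and a GAS match in 6 (12%), against 6.37%. Over the 44 distal ones GATA was present in 22 (50%), against 37.4%, and GAS in 5 (11.4%), against 6.63%. No test was made of these counts. At Cish the promoter gained a region at −253 bp, chr9:107295633-107295915, with a signal of 4.61 and a GATA match. That region was called in replicate 1's own list, with 5.15, and had 3.48 in replicate 2. Socs3 gained one at −855 bp with 4.73 and a GATA match, and Pim1 one over an internal start site with 2.34.

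Other genes of the pathway were described from a list of 55. In the conservative list a promoter region was present at 41 of the 55, against the 42.3% of all genes above. A promoter region in each replicate's own list was present at 35, against 37.6%. At least 1 distal region stood near 43, against 50.6% of all genes, and the median was 2, against 1 over all genes. The 16 adaptors, kinases and phosphatases of the receptor all had a promoter region, 12 of them one in each own list, and the strongest was that of Pik3ca, a catalytic subunit of PI3-kinase, at 17.9. All 4 other SOCS genes had one, led by Socs5 at 16.8. Of the other STAT genes 4 of 5 had one, led by Stat2 at 21.9, and of the other JAK genes 2 of 3, led by Jak1 at 21.5. Other PIM and BCL2 survival genes had 3 of 6, led by Pim2 at 17.0, and further reported targets 6 of 8, led by Erfe, the hormone erythroferrone, at 13.3.

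Of the other cytokine receptors 6 of 13 had a promoter region, a share near the 42.3% of all genes. The strongest among them was Ifnar1, a chain of the type I interferon receptor, at 20.2. No region of any kind lay within 50 kb of Ghr, Prlr or Il7r, the receptors for growth hormone, prolactin and interleukin 7, nor of Bcl6, a repressor among the reported targets. Jak1, Stat2 and Socs5 thus had promoter signals of 21.5, 21.9 and 16.8, where Jak2, Stat5a and the strongest of the 4 inhibitors (Socs3) had 7.38, 13.9 and 13.6. These signals describe accessible DNA and are not levels of RNA.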

How the data were processed

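Accessible chromatin was measured by ATAC-seq in 2 libraries of G1E-ER4 cells, which form 1 group. Peaks were deposited by the authors in narrowPeak layout on mm10, per the labels. The sources used here do not give the software for alignment and peak calling, its versions, the filters on reads or a shift of their ends, and read depth is unknown, so precision could be judged only from the 2 replicates. The signal of a peak, its −log10 p-value and, in the ranked lists, a score that is −log10 of the global IDR are the authors' deposited values, and they were used only to describe or rank peaks within a list. Of the peak lists, 11 were used: the conservative list (20080 regions), each replicate's own IDR list (14012 regions in replicate 1 and 15564 in replicate 2), the list of pooled pseudoreplicates, the replicated and archived replicated lists, the ranked list of true replicates, and each library's own ranked and pseudoreplicated lists.

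Overlapping peaks were merged into regions with Python 3.11.15 and numpy 2.4.6, each placed by its strongest summit. Genes and 54355 start sites of protein-coding transcripts came from GENCODE release M21. To count as shared, 2 regions had to overlap by 50% of the shorter one. Motifs were searched on both strands within 100 bp of the summit, or over the whole region where stated. They were GAS, GATA and the E-box GATA composite, spelled out with the results, the CACCC box CCACACCC, the ETS motif CCGGAAG and the AP-1 motif TGANTCA. A composite can contain a GATA match, and both were then counted. Sequence came from the RefSeq genome and promoter table of GRCm38.p6, indexed with samtools 1.23.1. All 10 genes were matched by symbol to GENCODE, and all but Socs2 to that table. Fam132b was matched as Erfe through RefSeq synonyms. Intervals are 95% Wilson intervals, from scipy 1.17.1.

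No test was made, since the libraries form 1 group and genes or regions are not replicates: counts stand beside the share of all genes or regions. The members and lists were chosen with earlier results of these data known. All 10 genes are named with their regions, and from each list of other pathway genes the one with the strongest promoter region and every one without a region. The readers were tested on simulated data. Alternatives tried were other peak lists, a stricter signal, each replicate alone and other windows, overlaps and motif windows.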

Additional observations from a re-analysis of the deposited data

How the results depend on the processing

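The count of genes with a promoter region stayed at 9 or 10 in the pooled pseudoreplicate, replicated and archived lists, in each replicate's own list and with promoter windows of 500 bp or 2 kb, and it was 5 among regions above the list's median signal. Distal regions near the genes numbered 26 in the conservative list, 70 in the replicated list, 148 in the archived list, 16 within 20 kb and 43 within 100 kb, and 9 of the 26 lay above the median signal. With a replicate left out the count was 13 to 16. The median per gene, 3, was 6.5 in the replicated list, 15.5 in the archived list, 1.5 within 20 kb, 3.5 within 100 kb, 2 with distal set beyond 2 kb and 1 above the median signal. It was 1.5 in either replicate's own list. The share of regions in both own lists, 62.1%, became 98.3% with the replicates' own pseudoreplicated lists, which have no IDR threshold. The median percentile of the promoter signals, 27.9, was 17.0 in the pooled pseudoreplicate list, 42.0 when ranked among all regions, and 16.7 to 29.7 with a replicate left out. Regions with a GAS match, 7 within 100 bp of the summit, numbered 15 over whole regions and 1 within 50 bp, and those with a GATA match, 12 within 100 bp, numbered 21 and 7. The stricter, smaller or wider settings hold fewer or more regions by construction, and any further cause was not tested. The lists left 10 of the 58 regions in neither own list, and with depth unknown a region not called is not shown to be closed. No paired analysis was possible because the libraries form 1 group.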

Other observations

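Motifs of other regulators within 100 bp of the summits gave these values near the 10 genes and in the whole list. The ETS motif was present in 5 of the 58 regions (8.62%), against 10.8% of the list, and it lay at the promoters of Mapkapk3, Pgs1, Plgrkt and Tpx2 and in a distal region of Socs1. The AP-1 motif was present in 5 (8.62%), against 7.24%, of which 4 were distal (15.4%), against 11.1% of distal regions. Among those 4 were the Cish region at 16.01 kb, with the motif 5 bp from its summit, and the Pim1 region at −43.3 kb, with the motif 15 bp from its summit. The CACCC box, bound by KLF1, was present in 2 (3.45%), against 5.18%, at the promoters of Mapkapk3 and Rab3d. Each is a match of letters, and binding was not measured here.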
